A study of Mus musculus with 4 samples.

Results

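CD8+ Tc with transcripts of the G2 and M phases of the cell cycle, called G2/M cells here by the rule that chose them, were picked out of spleen Tc of leukemia-bearing mice after allogeneic transplantation. A member was a CD8+ Tc with at least 1 unique molecular identifier (UMI, a count of 1 captured RNA molecule) of each of Mki67, Top2a and Ccnb2, and 339 of 4267 CD8+ Tc (7.94%) met this rule. Members were thus chosen by their own measured counts of these 3 genes. A CD8+ Tc was a barcode with at least 500 genes, at least 1000 gene UMIs and at most 10% mitochondrial UMIs, at least 1 UMI of Cd3d, Cd3e or Cd3g, at least 1 of Cd8a or Cd8b1, and none of Cd4 or of the erythroid factor Klf1. The members were compared with 1489 other cycling CD8+ Tc, which held a UMI of Mki67 or Top2a without meeting the rule, and with 2439 noncycling CD8+ Tc, which held neither.

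The cells came from 4 mice, with 1 single-cell RNA-Seq library per mouse. BALB/c recipients were lethally irradiated and given 10000 WEHI-3B cells, a BALB/c myelomonocytic leukemia line, together with donor BM, and 200000 donor Tc followed on day 2. In 2 recipients the donor Tc were Havcr2fl/fl, in which the alleles of Havcr2, encoding TIM-3, carry loxP sites. In the other 2 they were Havcr2fl/fl;E8icre/+, in which Cre is driven by the E8I enhancer of Cd8a and is meant to delete Havcr2 in mature CD8+ Tc, so that both groups carry the floxed alleles. Splenic Tc were taken on day 23, and donor cells were tagged through H-2Kb with an antibody that carries a sequence barcode. The sample labels name isolation with a pan-T kit, whereas the paper's legend names FACS-sorted donor Tc. How this bears on RNA of other cell types in the libraries was not tested. Age and sex of the mice were not used here. Values for the 4 libraries are given throughout in the order Havcr2fl/fl;E8icre/+ replicates 1 and 2, then Havcr2fl/fl replicates 1 and 2.

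Havcr2 itself went against a label. In the members it had 85, 1, 29 and 71 UMIs, so the library labelled Havcr2fl/fl;E8icre/+ replicate 1 stood with both Havcr2fl/fl libraries and only replicate 2 of that genotype was near 0. Whether 3′ counts can read the deletion is not known, because the position of the floxed exons was not given in the sources used here. The main results between genotypes are therefore given with and without that library.

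A dividing cell copies its DNA in S phase, grows through G2 and separates its chromosomes in M phase. Entry into mitosis is driven by Cdk1 bound to B-type cyclins, of which Ccnb2 is 1, and exit begins when Cdc20 directs the anaphase-promoting complex to destroy cyclin and securin. Mki67 encodes the Ki-67 protein that coats mitotic chromosomes and is absent from resting cells, and Top2a encodes the topoisomerase that untangles sister chromatids. Genes of S phase and genes of G2/M are turned on at different times through different promoter elements, with E2F sites serving the G1/S genes and the cell cycle genes homology region (CHR), often with CCAAT boxes, serving the G2/M genes. In CD8+ Tc, division accompanies the step from antigen recognition to effector or exhausted states.

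These elements can be read in the promoters of the genes that set the members apart. Below, the 120 bases upstream of the annotated start are shown 5′ to 3′ on the gene's strand for 5 G2/M genes and, for contrast, 1 S phase gene. Capitals mark CCAAT, the CHR core TTTGAA and, for Mcm6, the E2F motif TTTGGCGC, each on either strand, so that ATTGG and TTCAAA are the same motifs read from the other strand.
Ccnb2: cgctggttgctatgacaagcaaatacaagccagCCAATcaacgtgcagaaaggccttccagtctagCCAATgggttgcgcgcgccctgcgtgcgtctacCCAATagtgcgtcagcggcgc
Cdc20: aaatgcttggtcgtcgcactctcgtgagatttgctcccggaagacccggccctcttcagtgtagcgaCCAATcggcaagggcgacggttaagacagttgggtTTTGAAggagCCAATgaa
Cdk1: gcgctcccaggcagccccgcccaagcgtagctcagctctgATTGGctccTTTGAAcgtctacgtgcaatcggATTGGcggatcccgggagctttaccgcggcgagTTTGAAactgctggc
Ube2c: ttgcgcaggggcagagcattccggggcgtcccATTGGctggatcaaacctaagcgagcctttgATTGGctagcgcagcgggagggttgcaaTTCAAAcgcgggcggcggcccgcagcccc
Kif11: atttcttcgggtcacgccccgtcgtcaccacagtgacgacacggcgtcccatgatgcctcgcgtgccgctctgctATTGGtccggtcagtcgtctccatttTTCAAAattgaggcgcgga
Mcm6: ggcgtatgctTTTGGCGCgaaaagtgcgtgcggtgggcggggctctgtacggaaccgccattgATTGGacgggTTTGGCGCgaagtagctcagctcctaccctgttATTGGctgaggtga

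Ccnb2, 1 of the genes of the rule, showed 3 CCAAT boxes and no TTTGAA in this stretch (chr9:70421555-70421674, minus strand), while Cdc20 (chr4:118437344-118437463, minus strand) and Cdk1 (chr10:69352913-69353032, minus strand) showed both motifs. Ube2c, the ubiquitin-conjugating enzyme of the anaphase-promoting complex (chr2:164769809-164769928, plus strand), and Kif11, the motor that pushes spindle poles apart (chr19:37376262-37376381, plus strand), also held both. Mcm6, a subunit of the replicative helicase (chr1:128359706-128359825, minus strand), held the E2F motif and CCAAT. All positions are on GRCm38.p6 and the sequences are from RefSeq.

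Over whole windows of 300 bases, 250 before and 50 after the start, TTTGAA lay in 34 of 50 promoters (68%) of the mitotic control and spindle lists described below, for which 48 of 57 genes were matched. It lay in 2 of 22 promoters (9.09%) of the S phase list, in 7 of 36 (19.4%) of the exhaustion, cytotoxic and precursor lists, and in 5878 of all 32851 promoters (17.9%). The E2F motif, taken as TTTGGCGC or TTTCCCGC, lay in 7 of 22 S phase promoters (31.8%), 0 of 50 mitotic and spindle promoters and 1.56% of all promoters. Promoters of the chromosome condensation list held both, with TTTGAA in 6 of 11 (54.5%) and the E2F motif in 3 of 11 (27.3%). CCAAT was frequent in both, at 74% of mitotic and spindle promoters and 63.6% of S phase promoters against 37.4% of all promoters. In mitotic control promoters the median TTTGAA centre lay 11.5 bases upstream of the start, at -11.5, and in spindle promoters at 8. None of the motifs contains another. A match is a description of the letters in these windows and not a measured binding site.

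**Figure D1:**
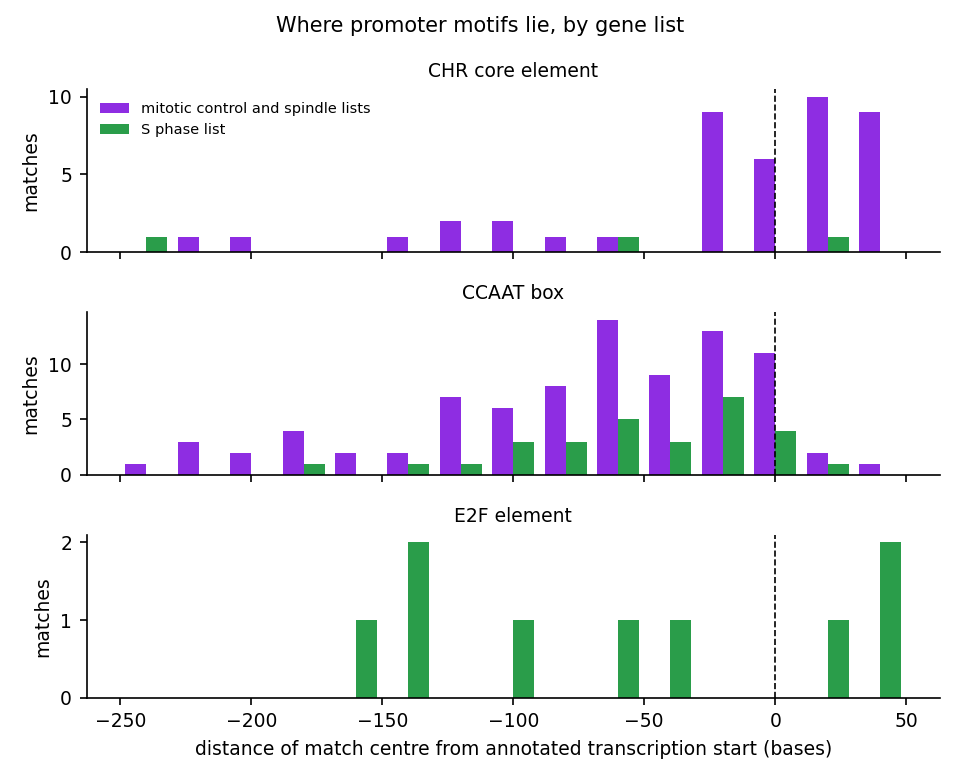
Matches to 3 promoter motifs by distance of the match centre from the annotated transcription start (x axis, bases) in promoters of the mitotic control and spindle lists (purple) and of the S phase list (green), counted in bins of equal width (y axis, matches). Of the CHR core matches, 14 are in the mitotic control list and 29 in the spindle list but 3 in the S phase list, whereas all 9 E2F matches are in the S phase list.

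In the libraries, 38386626, 31449644, 17693991 and 55045903 UMIs on genes were counted, and 3431, 2551, 1213 and 4437 cells passed the filter, of which 1542, 960, 493 and 1272 were CD8+ Tc. Members numbered 143, 64, 30 and 102. Their share of CD8+ Tc was 9.27% (95% Wilson interval 7.93% to 10.8%), 6.67% (5.26% to 8.42%), 6.09% (4.30% to 8.55%) and 8.02% (6.65% to 9.64%), where intervals cover counting error only. Shares in the 2 genotypes overlapped. Of 11615 distinct barcodes kept, 17 occurred in more than 1 library, and 1 of these pairs involved a member.

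**Figure D2:**
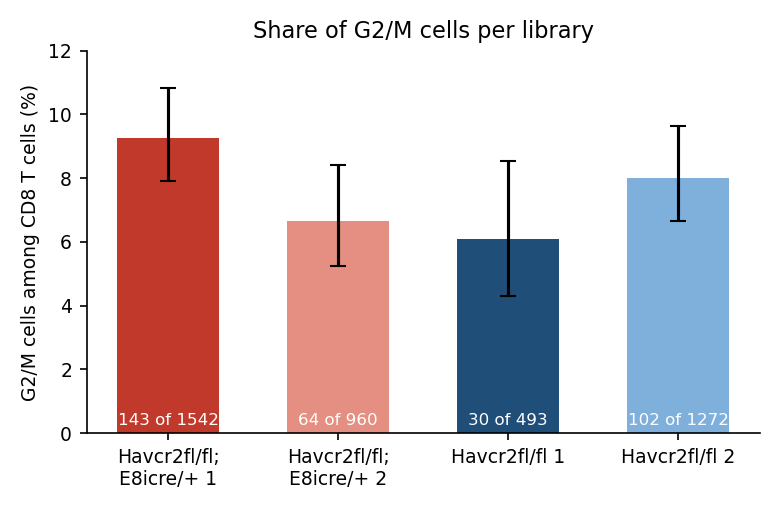
Share of CD8+ Tc that met the G2/M rule (y axis, %) in each of the 4 libraries, with counts in the bars and 95% Wilson intervals as error bars. The genotypes overlap, from 6.67% to 9.27% in Havcr2fl/fl;E8icre/+ and from 6.09% to 8.02% in Havcr2fl/fl.

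Members carried more UMIs than other CD8+ Tc of the same library. Their median UMIs per cell were 11165, 16293.5, 22411.5 and 7888.5, against 3980, 5667, 6114 and 2739 in noncycling cells, a ratio of 2.81, 2.88, 3.67 and 2.88. Over other cycling cells the ratio was 1.98, 2.43, 2.65 and 2.12. The rule asks for 1 UMI of each of 3 genes, which a deep cell meets more readily, and how far this sets the difference was not tested. When cells were thinned to 2000 UMIs before the rule was applied, and shallower cells left out, 37 of 1511, 23 of 952, 7 of 480 and 31 of 1129 CD8+ Tc met it (2.45%, 2.42%, 1.46% and 2.75%).

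The 3 genes of the rule were not at their threshold in most members. Median UMIs per member were 18, 21.5, 23 and 10 for Mki67, 15, 19, 20 and 10 for Top2a, and 2, 5, 4.5 and 2 for Ccnb2. Ccnb2 was the gene that most often decided membership, with exactly 1 UMI in 45, 15, 5 and 31 members. Cdc20 and the kinetochore protein gene Cenpf were named as markers of these cells but were not part of the rule. Cdc20 was found in 67.1%, 75%, 80% and 65.7% of members and in 0.860%, 0.867%, 2.83% and 1.70% of noncycling cells, and Cenpf in 84.6%, 85.9%, 73.3% and 82.4% against 2.33%, 1.39%, 0.707% and 2.22%. At an equal 2000 UMIs per cell, which left out 25, 7, 9 and 109 noncycling cells and no member, Cdc20 was still found in 23.8%, 28.1%, 36.7% and 28.4% of members against 0.253%, 0%, 0.365% and 1.07%. Both markers therefore stood with the label in each library.

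Cell cycle genes were grouped into 4 lists and are given as levels, since the classes were drawn on this program. For the mitotic control list, 25 genes of Cdk1 activation, the spindle checkpoint and the anaphase-promoting complex, the summed level in members was 4898, 4558, 4189.5 and 5665 CPM (UMIs of the list scaled to the total UMIs of the cells summed, as counts per 1000000), or 4828 ± 629 (SD, n = 4). In other cycling cells it was 707 ± 308 and in noncycling cells 259 ± 88.6. The spindle and kinetochore list of 32 genes stood at 9909 ± 781, 1762 ± 775 and 644 ± 163 in the same order. Chromosome condensation, 13 genes with condensins and variant histones among them, stood at 13958 ± 654, 4585 ± 856 and 2599 ± 271. Within each of these lists, the lowest member library lay above the highest library of either other class.

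Of all 9349 genes that could be compared between classes, 51% differed between members and noncycling cells, with 27.4% higher and 23.6% lower in members, at an adjusted p under 0.05 (edgeR quasi-likelihood test with the library as a block, Benjamini-Hochberg adjustment), and 37.7% differed from other cycling cells, with 20.8% higher and 16.8% lower. Each comparison had a median log2 fold change of -0.01 over all genes. Beside this background, 24 of 25 mitotic control genes were higher than in noncycling cells with a median log2 fold change of 5.64, all 32 spindle genes with a median of 5.05, and all 13 condensation genes with a median of 3.39. Against other cycling cells the counts were again 24, 32 and 13, with medians of 2.95, 2.92 and 1.97. As the rule chose on 3 genes of this program, nothing is read from these counts.

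Single genes showed how evenly the libraries carried the program. Ube2c was at 731, 643, 503 and 953 CPM in members and at 11.8, 4.84, 3.75 and 26.6 CPM in noncycling cells, a log2 difference of 6.05 ± 0.21 (SE). Cenpf was at 633, 584, 580 and 760 CPM against 5.51, 3.41, 1.07 and 7.73 CPM, and Hmmr, a spindle assembly protein, at 284, 336, 258 and 350 CPM against 0.525, 0.569, 0.535 and 7.73 CPM. Every member library was above every noncycling library for these genes. Plk1, the kinase that matures centrosomes, differed by 6.46 ± 0.36, and Aspm, a spindle pole protein, by 7.20 ± 0.36 on the log2 scale. The exception in the mitotic control list was Pttg1, which encodes securin, the inhibitor of the enzyme that cuts sister chromatids apart. Pttg1 was at 62.6, 64.1, 58.6 and 70.4 CPM in members and at 62.7, 65.5, 66.4 and 70.9 CPM in noncycling cells, a log2 difference of -0.04 ± 0.10.

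S phase genes separated the classes less. The list of 26 genes, with the MCM helicase and the enzymes of nucleotide supply, stood at 4024 ± 126 CPM in members, 2564 ± 845 in other cycling cells and 1056 ± 245 in noncycling cells (SD, n = 4). All 26 were higher than in noncycling cells with a median of 2.18, and 20 of 26 were higher than in other cycling cells with a median of 0.61. Rrm2, a subunit of ribonucleotide reductase, was higher by 2.06 ± 0.26 than in other cycling cells, whereas Mcm6, at 229, 234, 210 and 198 CPM in members and 234, 177, 146 and 242 CPM in other cycling cells, differed by 0.14 ± 0.11. The members thus held S phase transcripts at levels no lower than the other cycling class taken whole, which was mixed. Cells with exactly 1 of the 3 genes, most of them in that class, stood at 1770, 1374, 1166 and 2089 CPM. Its cells with Mki67 and Top2a stood at 5464, 4053, 2886 and 5275, against 4093, 3968, 3878 and 4158 in members. The name G2/M describes the rule rather than cells free of S phase RNA.

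**Figure D3:**
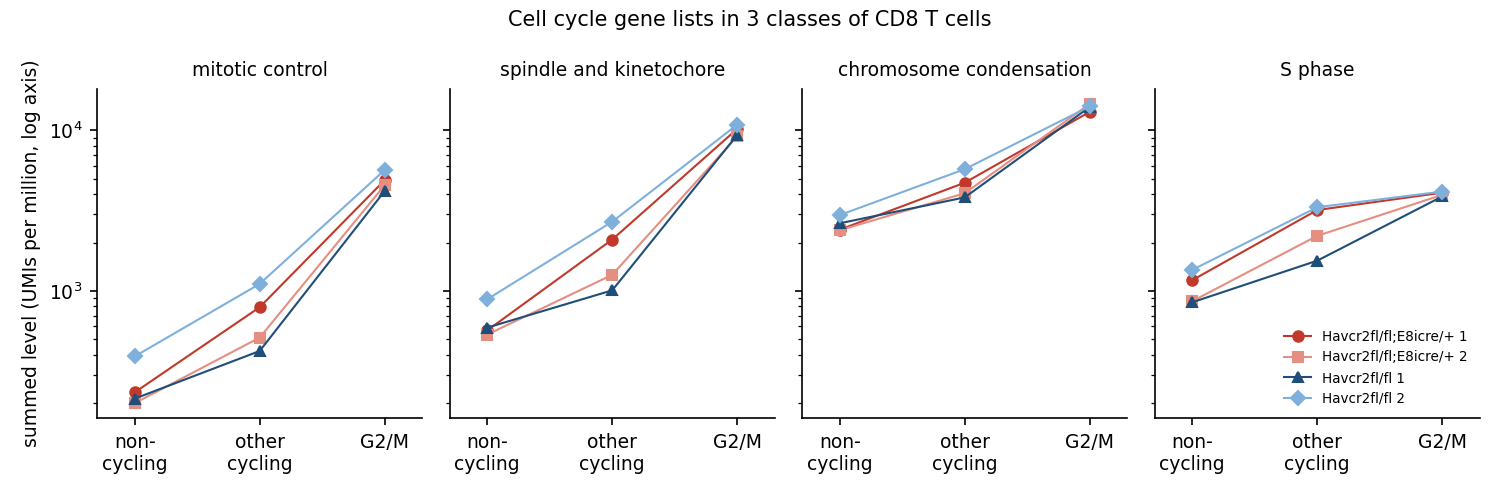
Summed level of 4 cell cycle gene lists (y axis, CPM, log axis) in noncycling, other cycling and G2/M CD8+ Tc (x axis), with 1 line per library. The mitotic control, spindle and condensation lists rise steeply into the G2/M class in all 4 libraries, whereas the S phase list lies between 3878 and 4158 there and between 1542 and 3321 in other cycling cells.

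Cells on both sides of the Ccnb2 threshold differed in the balance of these lists. Members with exactly 1 Ccnb2 UMI had S phase levels of 5685, 5469, 4775 and 5399 CPM and mitotic control levels of 3762, 2451, 1763 and 3941. Members with 2 or more had lower S phase levels, 3498, 3630, 3742 and 3699, and higher mitotic control levels, 5323, 5032, 4555 and 6302. Just outside the rule, the 157, 71, 31 and 101 cells with Mki67 and Top2a but no Ccnb2 had 5464, 4053, 2886 and 5275 for S phase and 1420, 854, 533 and 1872 for mitotic control. The few cells with Mki67 and Ccnb2 but no Top2a, 20, 12, 8 and 21 in number, had low S phase levels of 2149, 2197, 1426 and 2693 with mitotic control levels of 2142, 2502, 1842 and 2313. Cells with none of the 3 genes stood at 1127, 860, 849 and 1328 for S phase and at 227, 197, 212 and 380 for mitotic control. These values describe the rule's boundary and were not tested.

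**Figure D4:**
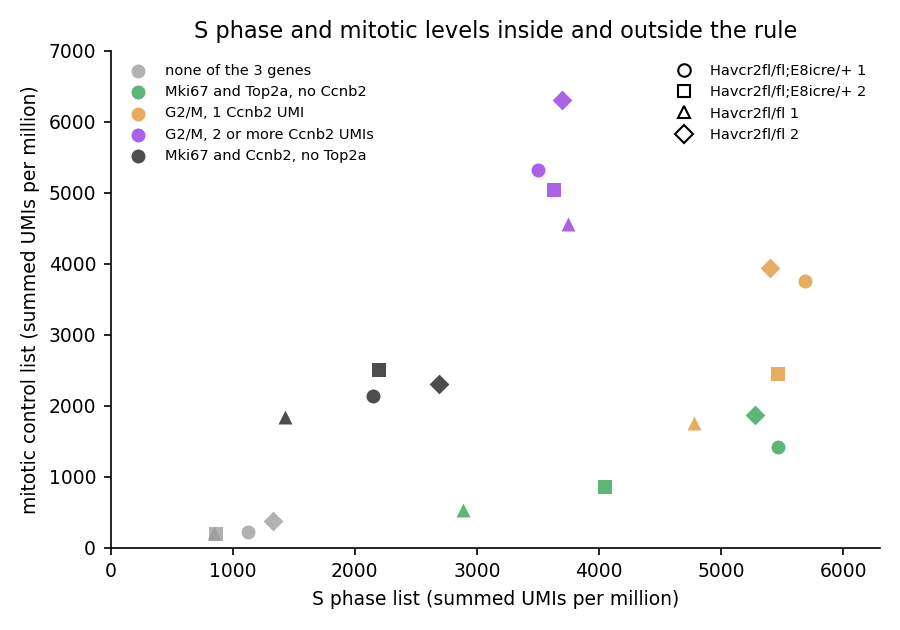
Summed S phase level (x axis, CPM) against summed mitotic control level (y axis, CPM) for cells inside and just outside the rule, with color for the cells and marker shape for the library. In each library, members with 2 or more Ccnb2 UMIs lie above and to the left of members with 1, and cells with Mki67 and Top2a but no Ccnb2 lie below both.

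Genes that hold cells at rest or restrain the cyclin-dependent kinases moved in both directions. Among all genes, 27.4% were higher and 23.6% lower than in noncycling cells, and 20.8% and 16.8% than in other cycling cells. Of 11 CDK inhibitor and quiescence genes, 5 were higher and 5 lower than in noncycling cells with a median of 0.02, and 4 were higher and 5 lower than in other cycling cells. Btg1, an antiproliferative gene of resting lymphocytes, was at 225, 220, 191 and 199 CPM in members and at 750, 933, 860 and 693 CPM in noncycling cells, lower by 1.93 on the log2 scale (-1.93 ± 0.10, edgeR adjusted p = 8e-11). Txnip, which limits glucose uptake, fell by 1.77 ± 0.11 and Cdkn1b, encoding p27, fell by 0.67 ± 0.09. The INK4 inhibitors rose instead. Cdkn2c, encoding p18, was at 87.0, 82.8, 96.7 and 104 CPM against 15.2, 15.4, 12.3 and 24.1 CPM, a log2 difference of 2.47 ± 0.16 (edgeR adjusted p = 1e-09), and Cdkn2d, encoding p19, rose by 1.35 ± 0.12 over noncycling and by 1.56 ± 0.12 over other cycling cells. For both INK4 genes every member library exceeded every library of the other 2 classes.

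Transcripts of energy metabolism genes were more often higher than lower. Among all genes, 27.4% were higher than in noncycling cells and 20.8% than in other cycling cells. Among 15 glycolysis genes 12 were higher and none lower than in noncycling cells, with a median of 0.93, and 8 were higher and none lower than in other cycling cells, with a median of 0.54. Ldha, which makes lactate, was at 609, 694, 570 and 761 CPM in members and at 272, 257, 261 and 320 CPM in noncycling cells, a log2 difference of 1.25 ± 0.09, and Tpi1, a triose isomerase, rose by 1.65 ± 0.09. Hk1, Gpi1 and Pfkl did not pass, whereas Hk2 and Pfkp, which act at the same steps as Hk1 and Pfkl, rose by 1.27 ± 0.49 and 0.46 ± 0.10. All 13 oxidative phosphorylation genes were higher than in noncycling cells with a median of 0.76, and 11 of 13 were higher than in other cycling cells with a median of 0.50. Cycs, cytochrome c, rose by 1.40 ± 0.12 and Atp5b, a subunit of ATP synthase, by 1.03 ± 0.08. Among cells with at least 5000 UMIs, 8 glycolysis and 10 oxidative phosphorylation genes were higher than in noncycling cells, beside 19.4% of all genes.

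Exhaustion genes made up a lower share of RNA in the members. As members carried more UMIs, this need not mean fewer molecules per cell. Over all genes, 23.6% were lower and 27.4% higher than in noncycling cells. Against other cycling cells these shares were 16.8% and 20.8%. Of 13 genes of inhibitory receptors and their regulators, 10 were lower and 1 higher than in noncycling cells with a median of -0.67, and 9 were lower and 1 higher than in other cycling cells with a median of -0.65. Pdcd1, encoding PD-1, was at 213, 140, 202 and 162 CPM in members, 324, 308, 342 and 320 CPM in other cycling cells and 337, 308, 380 and 334 CPM in noncycling cells. Its log2 difference from noncycling cells was -0.92 ± 0.09 (edgeR adjusted p = 2.2e-07), and the members lay below both other classes in all 4 libraries. Lag3, another inhibitory receptor, was at 164, 83.7, 199 and 119 CPM against 326, 288, 334 and 307 CPM in noncycling cells, a difference of -1.19 ± 0.13 (edgeR adjusted p = 8.4e-07). Tox, the factor that fixes the exhausted state, fell by 0.66 ± 0.08. Eomes, a T-box factor of memory and exhausted cells, was the gene that rose, at 246, 198, 160 and 193 CPM against 206, 123, 122 and 140 CPM, a difference of 0.45 ± 0.09. Without the library labelled Havcr2fl/fl;E8icre/+ replicate 1, 9 of 13 were lower and 1 higher than in noncycling cells. In that setting 1992 of all 9288 genes tested were lower and 2109 higher.

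Genes of precursor exhausted cells, the stem-like pool that feeds the exhausted one, were a lower share of RNA as well. Among all genes, 23.6% were lower than in noncycling cells and 16.8% than in other cycling cells. Of 10 genes 8 could be tested, and 6 were lower and 1 higher than in noncycling cells, with a median of -1.54. Il7r, the receptor that sustains resting and memory cells, was at 17.2, 17.8, 41.0 and 74.1 CPM in members and at 155, 205, 378 and 137 CPM in noncycling cells, a log2 difference of -2.59 ± 0.29 (edgeR adjusted p = 1.2e-06). Tcf7, encoding TCF-1, was at 31.6, 41.8, 20.5 and 29.1 CPM against 80.3, 138, 73.9 and 53.7 CPM, lower in every library by a log2 difference of -1.46 ± 0.14. Bach2, a repressor of effector fate, fell by 2.78 ± 0.32 and Slamf6, a surface marker of the pool, fell by 0.87 ± 0.10. Against other cycling cells 5 were lower and 1 higher with a median of -0.60, and 3 were lower among cells with at least 5000 UMIs, where 8.76% of all genes were. The difference of Tcf7 from other cycling cells was -0.65 ± 0.15, and this call was lost at that depth with a difference of -0.55 (edgeR adjusted p = 0.0696), under the stricter cell filter (-0.27) and without Havcr2fl/fl;E8icre/+ replicate 2 (-0.44).

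**Figure D5:**
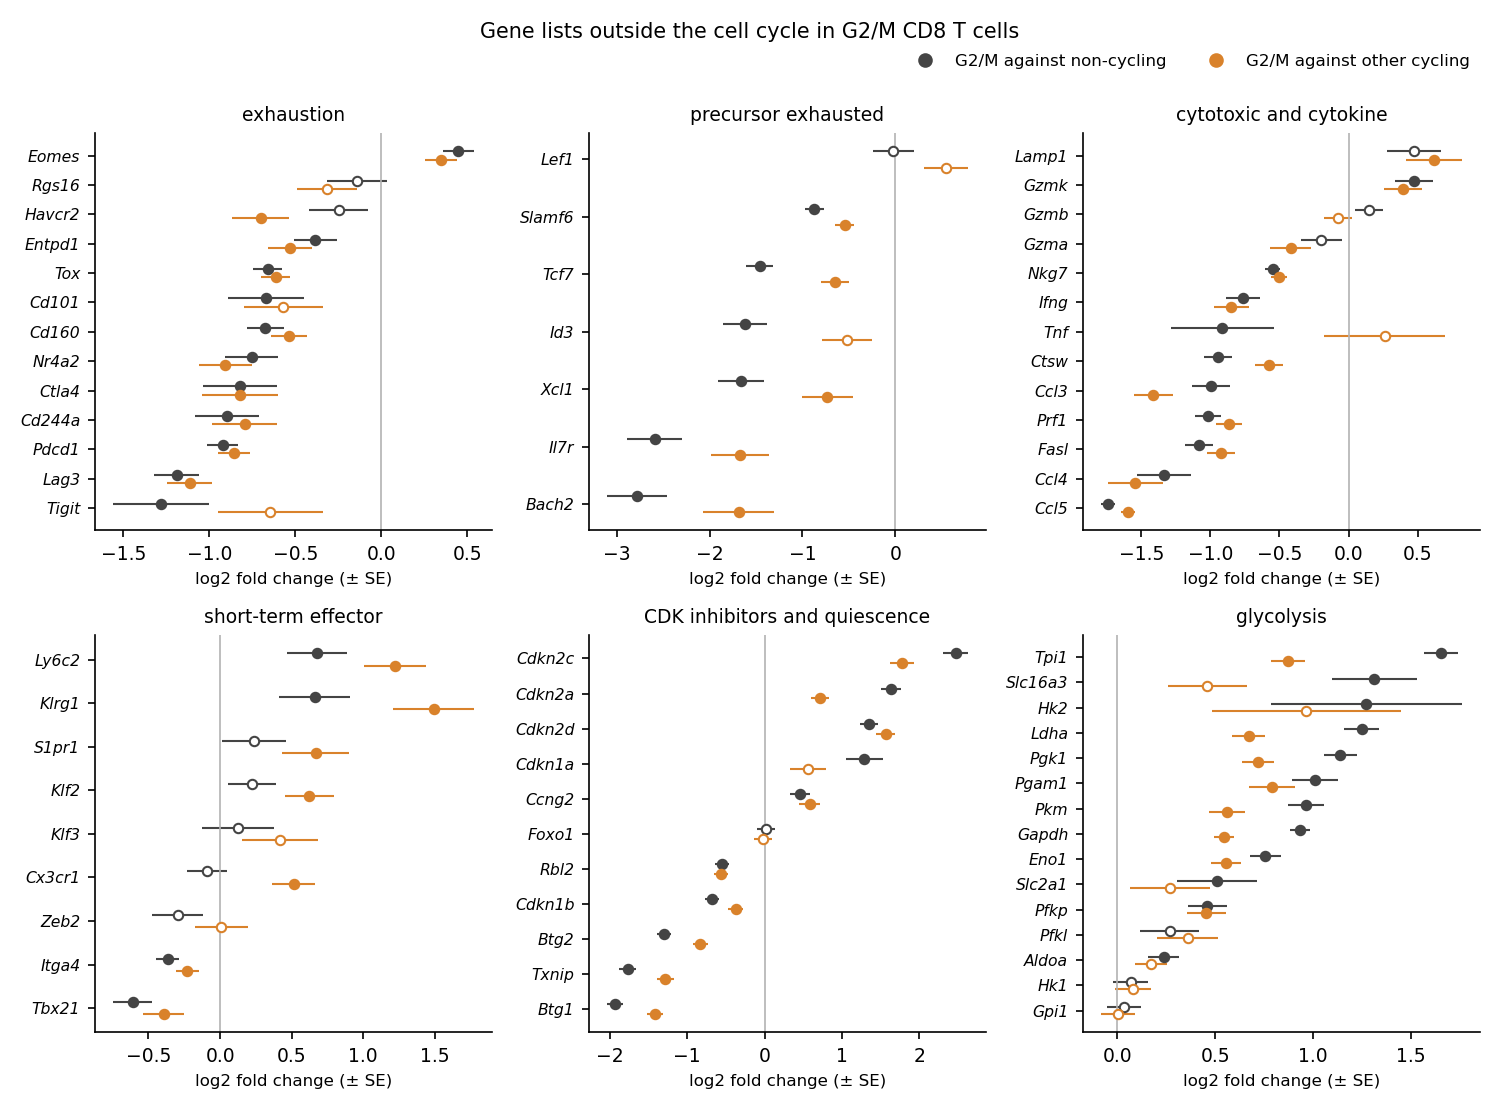
Log2 fold change of single genes (x axis, ± SE) in 6 lists outside the cell cycle core, for G2/M members against noncycling (gray) and other cycling (orange) CD8+ Tc; filled points passed an adjusted p of 0.05, and 1 tested precursor gene is not drawn. Exhaustion, precursor and cytotoxic genes lie mostly left of 0, glycolysis genes right of it, and INK4 inhibitors and Btg1 at opposite ends of their panel.

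Transcripts of secreted effectors were a lower share of RNA while granzymes were uneven. Among all genes, 23.6% were lower and 27.4% higher than in noncycling cells, and 16.8% and 20.8% than in other cycling cells. Of 14 cytotoxic and cytokine genes 13 could be tested, with 9 lower and 1 higher than in noncycling cells and a median of -0.92, and 9 lower and 2 higher than in other cycling cells with a median of -0.58. Ccl5, a chemokine stored by memory and effector CD8+ Tc, was at 6109, 3910.1, 5557 and 6755 CPM in members and at 17032, 14031, 17691 and 17681 CPM in other cycling cells. Its log2 differences were -1.59 ± 0.05 from these and -1.74 ± 0.05 from noncycling cells (edgeR adjusted p = 3.1e-12 and 7.8e-13). The summed list stood at 12136, 7519, 8984 and 13822 CPM in members and at 26800, 20872, 24342 and 29623 in other cycling cells. Prf1, the pore-forming perforin, fell by 1.02 ± 0.09, Fasl fell by 1.08 ± 0.10 and Ccl4 fell by 1.34 ± 0.20 relative to noncycling cells. Gzmk rose by 0.47 ± 0.14, whereas Gzmb, at 536, 422, 261 and 687 CPM against 464, 320, 284 and 658 CPM, differed by 0.15 ± 0.10 (edgeR adjusted p = 0.24).

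Short-term effector genes, those of the KLRG1+ circulating type, were mixed. Of 9 tested, 5 were higher and 2 lower than in other cycling cells with a median of 0.51, beside 20.8% and 16.8% of all genes. Against noncycling cells 2 were higher and 2 lower with a median of 0.12, beside 27.4% and 23.6% of all genes. The latter counts are near those shares, and nothing is read from them. Klrg1 was at 8.87, 17.8, 14.7 and 20.6 CPM in members against 4.38, 6.92, 3.65 and 5.37 CPM in other cycling cells, a difference of 1.49 ± 0.28, and the classes did not overlap. Klf2, which controls exit from tissue, rose by 0.62 ± 0.17 and Cx3cr1, a fractalkine receptor, by 0.51 ± 0.15, whereas Tbx21, encoding T-bet, fell by 0.39 ± 0.14. Klf2 was higher in members of 3 libraries and Cx3cr1 in members of 4. Both calls were close to the threshold, as Klf2 no longer passed without Havcr2fl/fl;E8icre/+ replicate 1 (0.54) or 2 (0.35), and Cx3cr1 without Havcr2fl/fl;E8icre/+ replicate 2 (0.50) or Havcr2fl/fl replicate 2 (0.41). Klf2 was also lost with DESeq2 (adjusted p = 0.062) and Cx3cr1 under the stricter cell filter (0.39). Ly6c2 rose by 1.22 ± 0.22 over other cycling cells and by 0.68 ± 0.21 over noncycling cells, and the latter no longer passed without Havcr2fl/fl;E8icre/+ replicate 2 (0.48) or Havcr2fl/fl replicate 1 (0.38), under the stricter cell filter (0.55), without the highest Scrublet scores (0.43), with 2 of 3 genes as the rule (0.29) or with DESeq2 (0.64), and was -0.047 once cells with 10 or more other-lineage UMIs were removed.

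Activation and interferon genes were more often lower than higher. Among all genes, 23.6% were lower and 27.4% higher than in noncycling cells. Of 12 activation genes 6 were lower than in noncycling cells and 1, the transcription factor gene Irf4, was higher (0.70 ± 0.26), with a median of -0.23. Icos, a costimulatory receptor, was at 30.5, 35.6, 33.7 and 44.9 CPM in members and at 74.0, 106, 92.1 and 77.3 CPM in noncycling cells, a difference of -1.28 ± 0.14. Of 10 interferon response genes 9 could be tested, and 5 were lower and none higher, with a median of -0.79. Isg15, a ubiquitin-like protein induced by interferon, was at 24.9, 39.2, 30.8 and 19.4 CPM in members against 61.7, 64.0, 39.1 and 88.5 CPM, and fell by 1.16 ± 0.21. Of 7 TCR and CD8 genes outside the gate, 6 were lower and 1, Lat, was higher than in noncycling cells with a median of -0.34. Among cells with at least 5000 UMIs 1 was lower and 1 higher at the threshold, beside 16% and 19.4% of all genes, while Trbc1, Lck and Cd247 were at -0.33, -0.25 and -0.26.

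Outside the cell cycle lists and among genes at 50 CPM or more, the largest rises over noncycling cells belonged to replication-dependent histone genes. Hist1h2ap was at 4427, 13690.1, 9131 and 2645 CPM in members, 832, 941, 234 and 602 CPM in other cycling cells and 24.2, 87.1, 56.8 and 47.3 CPM in noncycling cells, a log2 difference of 7.05 ± 0.44 from the last. Hist1h1b, a linker histone, was at 3074, 4091, 2678 and 5249.7 CPM against 26.5, 19.1, 17.1 and 92.8 CPM. Noncycling libraries were exceeded by every member library for both, and differences were large for Hist1h3b, Hist1h3c and Hist1h2ab too, at 8.99 ± 0.41, 7.58 ± 0.38 and 7.36 ± 0.43. Levels of single histone genes are uncertain because the copies of this family are near-identical, and Hist1h2ap varied among the member libraries more than the mitotic genes above. Against other cycling cells the highest genes were the granule protease gene Elane, then Arhgap19, Prr11, Kif14 and Cdkn3 at 3.97 ± 0.31, 3.75 ± 0.20, 3.63 ± 0.32 and 3.41 ± 0.20, the last 4 of which were even across libraries. Among the lowest genes relative to noncycling cells, Tnfsf8, encoding CD30 ligand, was at 9.98, 24.0, 39.6 and 15.8 CPM against 80.3, 189, 79.8 and 96.2 CPM. The others at the same limit of 50 CPM were Il7r, the neutrophil gene Retnlg and the globins Hbb-bs and Hba-a2.

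RNA of other cell types was present in the members and moved with some of these results. The erythroid list was lower in members, at 1494, 241, 190 and 455 CPM, than in other cycling cells, at 8767, 7432, 13310.1 and 8097, with Hbb-bs its most abundant gene in each and 3, 3, 5 and 2 of its 12 genes at 0 in members, Klf1 among them by the gate. Few cells carried these sums, as the median cell was at 131, 153, 141 and 375 CPM in members and at 175, 197, 212 and 714 in other cycling cells. Of 8 erythroid genes tested, 7 were lower than in other cycling cells and 5 than in noncycling cells, beside 16.8% and 23.6% of all genes. With 2 of 3 genes as the rule, none of the 8 passed against noncycling cells and all 4 globins were above 0, at 0.37 to 0.56. Its part in the other differences was not tested. The myeloid and progenitor list stood at 262, 3462, 2080.3 and 397 in members and at 159, 101, 3754 and 494 in other cycling cells. Its most abundant gene in members was Prtn3 in 3 libraries and S100a8 in Havcr2fl/fl;E8icre/+ replicate 2, and at most 1 of 13 genes was at 0. Of 10 myeloid genes tested, 7 were higher than in noncycling cells with a median of 3.05, beside 27.4% of all genes. Elane was at 7.21, 179, 453 and 63.1 CPM in members, which is uneven among libraries.

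Most members held some RNA of these lists, since 28 of 339 had under 2 such UMIs, but few held many. At least 10 UMIs of lineage genes, or at least 50 of globins, were found in 5, 6, 3 and 2 members, 16 in all (4.72%), against 3.63% of other cycling and 1.80% of noncycling cells. Without such cells, 5 myeloid genes could be tested and 3 were lower and none higher in members, with a median of -1.40. The direction thus turned, over fewer genes. As the filter removes cells by UMIs of lineage genes and took a larger share of members, nothing is read from this turn. Of 7 erythroid genes tested without such cells, 4 were lower than in other cycling cells, beside 17.2% of all genes. Hba-a1 (-0.42) and Hba-a2 (-0.47) lost their call. With those cells removed, where 25.1% of all genes were lower and 24.7% higher than in noncycling cells, 10 of 13 exhaustion genes, 8 of 13 cytotoxic genes and 6 of 8 precursor genes were lower than in noncycling cells, and 13 of 13 oxidative phosphorylation and 10 of 15 glycolysis genes higher. B lineage RNA was low in members, at 171, 229, 223 and 442 CPM, led by Igkc, with 3, 2, 3 and 2 of 7 genes at 0. The NK list was at 3.32, 4.01, 38.5 and 2.28 with 4, 3, 3 and 4 of 5 genes at 0, and the CD4 helper and regulatory list at 8.31, 10.4, 5.50 and 4.56 with 2, 1, 3 and 3 of 4 genes at 0, Cd4 among them by the gate. Scrublet called 2, 5, 9 and 109 doublets among all cells kept, and removal of the highest scores is among the alternatives.

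The design asks whether loss of TIM-3 in CD8+ Tc alters these dividing cells. The mean share of members was 7.97% ± 1.84 in Havcr2fl/fl;E8icre/+ and 7.05% ± 1.37 in Havcr2fl/fl (SD, n = 2 each), a log2 ratio of 0.18. An exact two-sided permutation test over the 4 libraries gave p = 0.667, and 0.333 is the smallest p this design allows. The ratio was -0.08 without the library labelled Havcr2fl/fl;E8icre/+ replicate 1, and -0.70 among cells with at least 5000 UMIs. At that depth the shares were 19.6%, 9.25%, 7.83% and 39.1%, so the genotypes again overlapped. Only 230 of 1272 CD8+ Tc of Havcr2fl/fl replicate 2 remained there. Summed over all CD8+ Tc, the mitotic control list was at 1392, 1062, 984 and 1591 CPM, again with the genotypes overlapping (log2 ratio -0.07, exact permutation p = 1). This ratio was -0.28 without that library and ranged from -0.38 to 0.32 with any 1 library left out. It was 0.47 without cells of 2 or more other-lineage UMIs and -0.42 among cells with at least 5000 UMIs.

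Within the members, Havcr2 was at 45.8, 0.844, 40.6 and 82.4 CPM, a log2 difference of -1.28 ± 0.64 (edgeR adjusted p = 0.999). It was found in 38 of 143 (26.6%), 1 of 64 (1.56%), 12 of 30 (40%) and 39 of 102 (38.2%) members. Without the library labelled Havcr2fl/fl;E8icre/+ replicate 1, the gene passed the test, on 1 UMI in the remaining library, so that its fitted fold is no bound. In Havcr2fl/fl;E8icre/+ replicate 1, Havcr2 was held by 11 of 12 members (91.7%) with Trav6n-5, an α chain variable gene, and 27 of 131 others (20.6%). There it was likewise held by 24 of 27 other cycling (88.9%) and 7 of 9 noncycling cells (77.8%) that had Trav6n-5. The reason was not tested.

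Of 7910 genes tested in the members, 0% passed between the genotypes, with 218 at an unadjusted p under 0.05, and DESeq2 called 0 with 44 at an unadjusted p under 0.05. Leaving out any 1 library leaves a single library in 1 group. The count rose in such fits, the cause was not tested, and nothing is read from it. Genes of other cell types were among those with the largest log2 differences there. Without the library labelled Havcr2fl/fl;E8icre/+ replicate 1, Ngp, a neutrophil granule gene, was at 11.3 and S100a8 at 8.07. Every member held the genes of the rule by choice, so their genotype differences, 0.10 for Mki67, 0.06 for Top2a and -0.07 for Ccnb2 on the log2 scale, are a description, and without the library labelled Havcr2fl/fl;E8icre/+ replicate 1 they were 0.011, -0.072 and 0.13. Cdc20 and Cenpf differed by -0.10 ± 0.23 and -0.13 ± 0.25, and by 0.031 and -0.21 without it. Of genes chosen after their values were seen, Il7r was at 16.7, 16.9, 39.2 and 70.8 CPM, lower in both Havcr2fl/fl;E8icre/+ libraries (-1.72 ± 0.35, edgeR adjusted p = 0.226, and -1.71 with adjusted p = 0.0074 without replicate 1), and Dnah8, a dynein chain, was at 57.7, 84.4, 26.6 and 17.4 CPM (adjusted p = 0.226, and 2.3e-05 without replicate 1). Neither gene was called without Havcr2fl/fl replicate 2. CPM here are from the fit of members alone and differ slightly from those of the class comparison above. Xlr, an X-linked lymphocyte gene, was at 13.5, 43.9, 0 and 0 CPM. A test of whether the genotype difference in members departs from that in noncycling cells called 0% of 9857 genes, with 371 at an unadjusted p under 0.05, and DESeq2 called 0 with 75.

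Summed levels of the 20 lists were also set side by side. In members the genotypes did not overlap for 3 of them, against 4 in other cycling and 7 in noncycling cells, beside 0% of genes called between genotypes, and nothing is read from these counts. The interferon response list was 1 of the 3, at 824 and 1084 CPM in the Havcr2fl/fl;E8icre/+ libraries against 675 and 633, and the genotypes were also apart in other cycling cells, at 1208 and 1455 against 886 and 949, and in noncycling cells, at 1386 and 1341 against 885 and 1081. The replicate 1 library is the one whose Havcr2 goes against its label. Of 5 interferon genes tested between genotypes in members, none passed. The other 2 lists were the CD4 helper list, above, and the sex list, at 146 and 147 against 150 and 164.

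TCR variable genes in the members were diverse. Among members with a UMI of any Trbv gene, 13, 13, 13 and 11 different Trbv genes were found, and 22, 20, 12 and 13 different Trav genes. In Havcr2fl/fl;E8icre/+ replicate 1 the leading β gene was Trbv29, in 15 of 45 members (33.3%) and in 27.9% of noncycling cells, and the leading α gene was Trav6n-5, in 12 of 58 (20.7%), 19.6% of other cycling and 6% of noncycling cells. Replicate 2 was led by Trav6-7-dv9, in 12 of 40 members (30%), 17.4% of other cycling and 9.39% of noncycling cells, and by Trbv12-2, tied with Trbv2, in 8 of 37 (21.6%). In Havcr2fl/fl replicate 2, Trav16n was in 11 of 29 members (37.9%), 43.2% of other cycling and 29.0% of noncycling cells, and Trbv29 in 6 of 21 (28.6%). In Havcr2fl/fl replicate 1, which had few members, Trbv16, tied with Trbv29, was in 5 of 26 and Trav3-3 in 3 of 14. Cells of 1 library come from 1 mouse, so these shares describe each mouse and were not tested.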

How the data were processed

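Spleen Tc of 4 mice were profiled by 10x Genomics 3′ v3.1 chemistry. The authors made the files with Cell Ranger 6.1.2 on mm10, per the labels; the deposited values are raw UMI counts of 32285 genes and 1 antibody tag per barcode, 15784 barcodes and 142576164 gene UMIs in all. The tag entered neither library sizes nor tests.

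Cells were classed in Python 3.11.15 with scanpy 1.11.5. For each library, the UMIs of a class were added up and tested with edgeR 4.0.16 in R 4.3.3 (TMM, filterByExpr, quasi-likelihood, Benjamini-Hochberg over all genes, threshold 0.05), between genotypes over 4 sums and between classes over 12 sums with the library as a block. Fold changes and CPM are on the TMM scale; list levels are CPM (counts per 1000000) of the class without TMM. SEs were derived from the fold change and its F statistic. Genes of the rule and gate were not tested between classes. The classes of a mouse are parts of 1 library, and with 2 mice per genotype p-values rest on that spread. Scripts were tested on simulated data.

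The members, lists and named genes were chosen with earlier results of these data known. Named genes are, per list, up to 4 with the largest change at 20 CPM or more, the 5 highest and lowest outside the cell cycle lists at 50 CPM or more, the genes of the rule, Cdc20, Cenpf and Havcr2; others in the text were chosen after their values were seen. Between genotypes no gene passed the rule for naming. TCR variable genes are the most frequent per library.

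Other settings tried were a stricter filter on cells (1000 genes, 5% mitochondrial UMIs), removal of the highest Scrublet scores at 0.8% per 1000 barcodes, removal of cells with other-lineage UMIs, a rule of 2 of 3 genes, cells with at least 5000 UMIs, thinning to 2000 UMIs, DESeq2 1.42.0, its size factors in edgeR, no filter on low counts, a replicate block and each library left out. Removal of cells with 10 or more lineage UMIs (or 50 globin UMIs) and a crossed pairing were added after the data were seen. Promoters are from RefSeq (GRCm38.p6). Figures were drawn with matplotlib 3.10.9. Some single genes of the lists are counted but not reported here.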

Additional observations from a re-analysis of the deposited data

Results flagged for a closer look

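The myeloid and progenitor list differed between members and other cycling cells in opposite directions by genotype. It was higher in members by 103 and 3361 CPM in the Havcr2fl/fl;E8icre/+ libraries and lower in the Havcr2fl/fl libraries, at -1674 and -97.4. Few cells carried these sums, as the median member was at 0 in 3 libraries and at 40.3 CPM in Havcr2fl/fl replicate 1, and 16 of 339 members held 10 or more lineage UMIs or 50 or more of globins. The difference between the genotypes was not tested.

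Eif2s3y, a Y-linked translation factor gene, moved in opposite directions between members and other cycling cells in the 2 genotypes, with a difference of log2 ratios of -0.45 that was not tested.

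The donor tag, an antibody count outside the gene measurements, was read in the members at a median of 2727, 3294, 4404 and 2281.5 UMIs per cell in the 4 libraries; no library lacked it, and no control library without the antibody was used here.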

How the results depend on the processing

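Counts of genes past the threshold between members and noncycling cells stayed within 1.5 times of 4765 under all alternatives run, and the count against other cycling cells, 3522, fell to 1957 among cells with at least 5000 UMIs (1160 higher and 797 lower). Leaving out 1 library gave 4016 to 4512 and 2468 to 3112. Of the gene results called in these comparisons, 657 of 676 values under the alternatives kept direction and side of the threshold against noncycling cells (13 lost, 6 reversed) and 633 of 694 against other cycling cells (59 lost, 2 reversed).

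Between genotypes 0 genes passed with TMM, DESeq2 and the replicate block. The count was 2 without cells of 10 or more lineage UMIs (Il7r, -1.85, and Xlr, at 0 in both Havcr2fl/fl libraries, adjusted p = 0.0389 by edgeR), 46 with no filter on low counts (26 higher, 20 lower), and 32 to 48 with 1 library left out, where the lone sample is assumed to vary like the other group. The interaction count was 0, then 51 with no filter and 0 to 7 with 1 library left out (7 without Havcr2fl/fl;E8icre/+ replicate 1). The log2 ratio of shares, 0.18, moved to 0.69 without cells of 2 or more lineage UMIs and to -0.70 among cells with at least 5000 UMIs, and ranged from -0.08 to 0.40 with 1 library left out. That of the mitotic control list, -0.07, moved to 0.47 without cells of 2 or more lineage UMIs and to -0.42 among cells with at least 5000 UMIs. It ranged from -0.38 to 0.32 with 1 library left out. Gene tests without cells of 2 or more lineage UMIs were not run, since they leave 28 of 339 members and none in 1 library. Havcr2, -1.28, was at -1.24 with no filter on low counts (adjusted p = 0.0266, edgeR) and between -5.99 and -0.46 with 1 library left out, the lowest without Havcr2fl/fl;E8icre/+ replicate 1 resting on 1 UMI and no bound; -1.71 (adjusted p = 0.000949) was without Havcr2fl/fl replicate 1.

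Replicate numbers are not stated to pair mice, and samples of equal number did not deviate together (Pearson r = -0.10 and Spearman rho = -0.01 over 7910 genes, which are not independent). With the replicate block the share ratio was 0.17, the list ratio -0.04, Havcr2 -1.63 and the count of genes 0. The crossed pairing called 26 genes (13 higher, 13 lower), Havcr2 among them at -1.64 (adjusted p = 0.000918, edgeR). Genes of other cell types were among them too, such as S100a9 (6.24) and Mpo (-1.65).

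Reversed values were as follows; the causes were not tested. Without cells of 10 or more lineage UMIs, the genotype differences of Mki67 and Top2a were -0.0064 and -0.059, Ly6c2 against noncycling cells was -0.047, Prtn3 was -1.77 against noncycling and -1.44 against other cycling cells, and Mpo was -0.21 against the latter. With 1 library left out, differences between genotypes ranged from -0.090 to 0.23 for Top2a, -0.31 to 0.17 for Ccnb2, -0.25 to 0.031 for Cdc20 and -0.32 to 0.087 for Cenpf, and that of Eif2s3y from other cycling cells from -0.024 to 0.15. With 2 of 3 genes as the rule, Hbb-bs, Hba-a2, Hba-a1 and Hbb-bt were 0.37, 0.46, 0.56 and 0.56 against noncycling cells and Eif2s3y -0.059 against other cycling cells. Zeb2 was 0.043 against noncycling cells among cells with at least 5000 UMIs. The genotype comparison rests on 2 mice a group, with 30 members in the smallest library.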
